A study of Mus musculus with 2 samples.

Results

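The BCL-2 family genes that set the threshold for mitochondrial cell death were examined in T cells of mouse spleen that carry CD8, with CD8+CD122+ cells set against CD8+CD122- cells. The 10 genes were Bcl2, Bcl2l1 and Mcl1 (pro-survival), Bbc3, Bcl2l11, Pmaip1, Bid and Bad (pro-death proteins of the BH3-only class) and Bax and Bak1 (effectors). Their probes were found by gene symbol, and the genes were picked with earlier results of these data known. They had 17 probes among the 41174 probes on the array that are not controls, and 16 of these probes were tested. The cells were sorted from spleens of C57BL/6 mice, an inbred strain, and are called CD122+ and CD122- cells below; the CD122- cells served as the comparison group. CD122, the IL-2 receptor beta chain, takes part in responses to IL-2 and IL-15. No treatment, genotype or age is given in the labels, nor whether animals were pooled. Their mRNA was amplified, and the populations were hybridised against each other on 2 two-colour arrays. On array 1 (replicate 1) the CD122+ sample was labelled with Cy5 and the CD122- sample with Cy3. Array 2 (replicate 2), labelled as the second trial, had the dyes exchanged. The labels do not say whether new mice were used for it, so every p-value rests on the spread between these arrays, which may be technical. The limma test takes part of that spread from all probes together (1.92 prior degrees of freedom beside 1 residual). Since the dyes were exchanged, the spread also holds any dye effect of the single probe.

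Pro-survival BCL-2 proteins hold the effectors BAX and BAK in check at the outer mitochondrial membrane. BH3-only proteins, induced or activated by cytokine withdrawal, DNA damage or antigen receptor signals, bind the pro-survival proteins or engage the effectors directly, and active effectors open pores that release cytochrome c. In T cells, IL-7 and IL-15 are known to sustain BCL-2 and MCL-1, and BIM (the product of Bcl2l11) is known to drive the loss of T cells after a response.

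Between 69.5% and 83.4% of the 41534 spots per array, controls left out, were well above background in a population. Each value below is a log2 ratio of CD8+CD122+ over CD8+CD122-, so 1 means 2-fold higher in CD122+ cells. Signals are normalised spot intensities on a linear scale and include an added offset of 50. They were not scaled between arrays, so they can be compared only within a probe on the same array. Il2rb, the gene of CD122, read 2.60 on array 1 and 2.34 on array 2 (mean 2.47 ± 0.18, SD, n = 2). Cd8a (mean -0.61 ± 0.43) and Cd8b1 (mean -0.67 ± 0.27), the chains of the CD8 coreceptor, were lower on both arrays, and of the CD3 chains of the T cell receptor complex Cd3e was at -0.01 (its other probe at -0.18), Cd3d at -0.13 and Cd3g at -0.50. Of 7 tested CD8 T cell markers 4 were lower on both arrays and 3 had opposite signs, beside 24% and 46.8% of all tested genes. Across the 30794 tested probes the limma fit with Benjamini-Hochberg adjustment gave no adjusted p under 0.05, and the smallest was 0.146. At an unadjusted p under 0.05 there were 1884 probes, and with a smaller offset of 16 the adjusted test gave 6, none of them a member. A size criterion was therefore read beside it, with no p-value: a ratio of 2-fold or more on each array, both pointing the same way.

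Bbc3 stood highest of the 10 genes, and Pmaip1, Bcl2, Bcl2l1 and 1 of the 2 Mcl1 probes were also higher in CD122+ cells on both arrays. With the scaling used here, the effector genes Bax and Bak1 and the BH3-only genes Bid, Bad and Bcl2l11 lay within 0.5 log2 units of 0 on each array. That bound depended on the scaling. With the deposited processed signals Bid was at -0.77 on array 2, and on array 1 Bcl2l11 was at 0.52 and Bad A_51_P419364 at -0.52. With median centring of each array Bid was at -0.64 and Bax at -0.51 on array 2. Bbc3 was the only member past 2-fold on both arrays. That is 1 of 16 tested member probes, against 0.253% of all tested probes that were 2-fold higher and 0.0812% that were 2-fold lower. No member passed limma (0 of 16; adjusted p between 0.344 and 0.943), and the background of adjusted calls was 0%. At an unadjusted limma p under 0.05 there were 5 member probes, all higher in CD122+ cells, where 2.62% of all tested probes were higher and 3.49% lower at that level. Of the tested member probes 10 were higher on both arrays, 2 were lower on both and 4 had opposite signs. Over all tested probes these shares were 27.8%, 25.6% and 46.6%. The 10 include every Bcl2 probe and the tested Bcl2l1 probes, which are not separate genes. The signs also depended on the scaling. With median centring Bcl2 A_52_P534870 was at -0.09 and Bak1 A_52_P225207 at -0.27 on array 2. The 2 that were lower, Mcl1 A_51_P238786 and Bax, were then at 0.26 and 0.10 on array 1. The tested probes include 2 that passed the brightness filter through 1 population only, Bcl2l11 (CD122+) and Bad A_51_P419364 (CD122-). Among the 14 others, well above background in both populations, 9 were higher on both arrays, 2 lower and 3 of opposite sign, beside 26.9%, 26.3% and 46.7% of the 28045 probes of that kind.

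**Figure D1:**
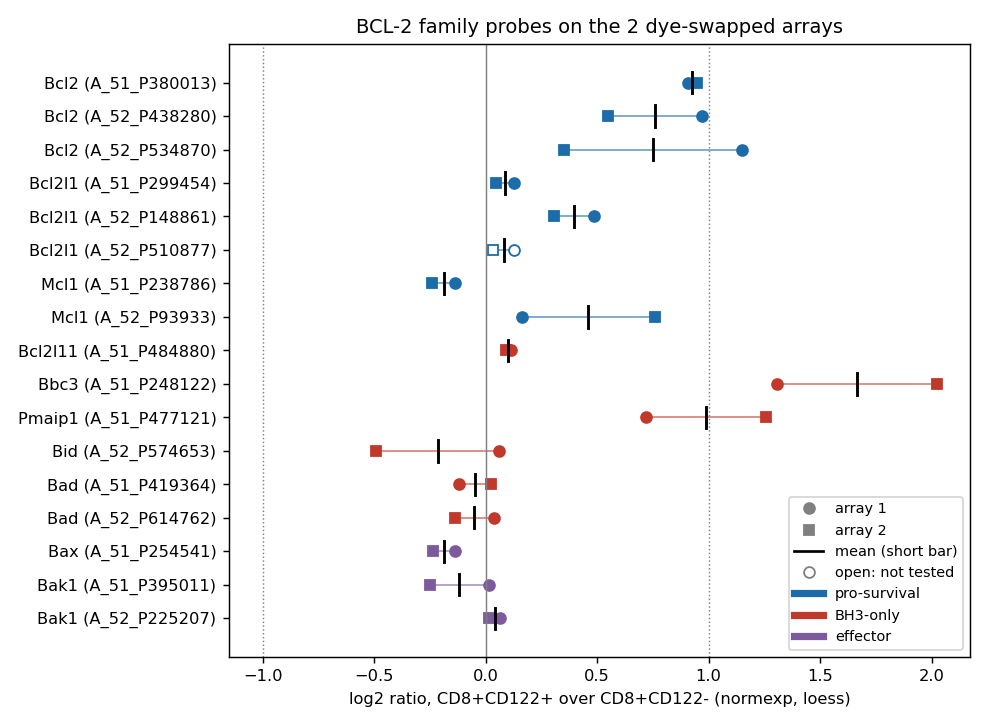
Log2 ratio of CD122+ over CD122- (horizontal axis) for each of the 17 member probes (vertical axis), with array 1 as circles, array 2 as squares, their mean as a short bar and dotted lines at 2-fold. Bbc3 lies right of the 2-fold line on both arrays, Pmaip1 and one Bcl2 probe cross it on 1 array each, and the effector probes lie near 0; open symbols mark the Bcl2l1 probe that was too dim to be tested.

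Bbc3 encodes PUMA, a BH3-only protein induced by p53 and by FOXO factors that binds all pro-survival BCL-2 proteins. Its 1 probe gave signals of 2708 in CD122+ and 1097 in CD122- cells on array 1, and of 3877 and 954 on array 2. The CD122+ signal was the higher on each array, and the ratio was larger on array 2. The log2 ratios were 1.30 and 2.02 (mean 1.66 ± 0.51, SD, n = 2; 3.17-fold higher; limma adjusted p = 0.600). The scanner software's own ratio lay 7.09 of its errors above 0 on array 1 and 9.33 on array 2. By mean ratio the Bbc3 probe ranked 49 from the top of the 30794 tested. The arrays measure RNA of whole sorted populations, in which more cells of a type and more RNA per cell cannot be told apart. RefSeq (GRCm38.p6) lists 3 start sites for Bbc3. The 250 bases before the second of them (chr7:16310011-16310260, plus strand) are shown because Bbc3 carried the largest difference of the family and this window holds the FOXO core TGTTTAC, in capitals, 167 bases before the start.
Bbc3 start site 2: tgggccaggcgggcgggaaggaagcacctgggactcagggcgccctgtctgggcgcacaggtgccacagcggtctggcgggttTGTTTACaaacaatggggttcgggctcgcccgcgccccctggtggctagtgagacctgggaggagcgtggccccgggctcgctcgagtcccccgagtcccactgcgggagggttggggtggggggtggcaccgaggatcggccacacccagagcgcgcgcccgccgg
This window is 72.4% G and C and holds 23 CpG dinucleotides, against medians of 52.4% and 6 over all 32851 RefSeq start sites in the table. The windows of the other two Bbc3 start sites hold no copy of that core.

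Pmaip1 encodes NOXA, a BH3-only protein that binds chiefly MCL-1 and A1 and promotes the degradation of MCL-1. Signals were 324 in CD122+ and 197 in CD122- cells on array 1, and 640 and 267 on array 2. The CD122+ signal was the higher on each array. Log2 ratios were 0.72 and 1.26 (mean 0.99 ± 0.38, n = 2; 1.98-fold higher; limma adjusted p = 0.656, unadjusted p = 0.011), so that Pmaip1 passed 2-fold on array 2 alone. Its probe ranked 159 from the top.

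Bcl2l11, the gene of BIM, was measured by a dim probe. It gave 69.7 and 64.5 (CD122+ and CD122-) on array 1 and 71.4 and 67.1 on array 2, signals that are mostly the added offset. It passed the brightness filter through CD122+ cells only, since on array 1 the CD122- spot was not well above background. The ratios of 0.11 and 0.09 (mean 0.10 ± 0.02, n = 2; limma adjusted p = 0.885) are shrunk by the offset, and the deposited processed signals gave 0.41 in place of 0.10. A difference in Bcl2l11 was not detectable at this brightness. RefSeq lists 2 start sites for Bcl2l11, and the window before the first (chr2:128125788-128126037, plus strand) is printed for comparison with Bbc3, because it also holds the FOXO core, here as its reverse complement GTAAACA in capitals, 227 bases before the start.
Bcl2l11 start site 1: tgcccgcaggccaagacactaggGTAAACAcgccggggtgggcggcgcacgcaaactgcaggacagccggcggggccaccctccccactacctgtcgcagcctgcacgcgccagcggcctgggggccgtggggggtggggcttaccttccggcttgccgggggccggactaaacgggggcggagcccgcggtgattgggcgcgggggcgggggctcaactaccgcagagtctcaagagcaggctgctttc
This window is 72% G and C with 24 CpG dinucleotides.

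Bid encodes a BH3-only protein that caspase-8 cleaves to link death receptors to mitochondria. Its log2 ratio was 0.06 on array 1 and -0.49 on array 2 (mean -0.22 ± 0.39, n = 2; limma adjusted p = 0.911), from signals of 142 and 136 (CD122+ and CD122-) on array 1 and 131 and 185 on array 2. The arrays differed in sign and gave no common direction. Bad, whose product is held inactive by growth factor signalling through AKT, had 2 dim probes with means of -0.05 ± 0.10 and -0.05 ± 0.13, and each had opposite signs on the arrays. One of them (A_51_P419364) passed the filter through CD122- cells only. Neither Bid nor Bad showed a difference larger than the spread between arrays.

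Bcl2, the founding pro-survival gene, was higher in CD122+ cells on both arrays with each of its 3 probes. Probe A_51_P380013 gave signals of 1735 in CD122+ and 925 in CD122- cells on array 1, and of 2160 and 1120 on array 2. Its log2 ratios of 0.91 and 0.95 nearly coincided (mean 0.93 ± 0.03, n = 2; 1.90-fold higher), with a limma adjusted p of 0.344 (unadjusted p = 0.00068). That p was the smallest of the family under loess; under median centring its arrays gave 1.30 and 0.52 (SD 0.55), and Bbc3 had the smallest (adjusted p = 0.294 there, and between 0.294 and 0.655 over its other settings). For probe A_52_P438280 the signals were 411 and 210 on array 1, then 478 and 327 on array 2, with ratios of 0.97 and 0.55 (mean 0.76 ± 0.30; adjusted p = 0.671). The brightest probe, A_52_P534870, read 2070 and 932 on array 1, then 2933 and 2298 on array 2, with ratios of 1.15 and 0.35 (mean 0.75 ± 0.56; adjusted p = 0.824). For this last probe the CD122- signal of array 2 exceeded the CD122+ signal of array 1, and with median centring in place of loess its ratio on array 2 was -0.09. The probes ranked 182, 260 and 266 from the top.

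By the coordinates in the file of array 2, with no genome build stated there, the first of these Bcl2 probes lies 1.66 kb from the second, and A_52_P534870 lies 174 kb away from A_51_P380013. The annotation of array 2 assigns A_51_P380013 and A_52_P534870 to different RefSeq transcripts of Bcl2. In the annotation of array 1, A_51_P380013 carries the transcript that array 2 gives to A_52_P534870, so the assignment is not settled. A_51_P380013 minus A_52_P534870 was -0.24 on array 1 and 0.60 on array 2, so neither was higher throughout. RefSeq lists 1 start site for Bcl2, and the window before it (chr1:106714291-106714540, minus strand) is printed because Bcl2 is the pro-survival gene with the largest ratio. It holds the cAMP response element core TGACGT, in capitals, 107 bases before the start.
Bcl2 start site 1: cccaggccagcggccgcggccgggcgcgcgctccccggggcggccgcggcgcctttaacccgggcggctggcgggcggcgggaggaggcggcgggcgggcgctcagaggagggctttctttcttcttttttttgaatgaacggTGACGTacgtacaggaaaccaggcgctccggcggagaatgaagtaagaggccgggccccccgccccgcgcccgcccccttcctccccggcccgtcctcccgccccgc
This window is 74.8% G and C with 36 CpG dinucleotides.

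The 3 motifs were chosen after the promoter sequences had been looked at, and both strands were searched. Promoters of 9 of the 10 members were matched, with 15 start sites. The FOXO core TGTTTAC was present in 2 of the 15 windows, against 3.17% of the 250-base windows of all 32851 start sites. The cAMP response element core TGACGT was present in 1 of 15, against 6.47%. The STAT palindrome TTCNNNGAA was present in 0 of 15, against 7.02%. The motifs share no overlapping match in these windows, and a match describes letters only.

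Bcl2l1, the gene of BCL-XL, had 3 probes. Probe A_52_P148861 gave signals of 208 in CD122+ and 148 in CD122- cells on array 1 and of 197 and 159 on array 2. The CD122+ signal was the higher on each array, with ratios of 0.49 and 0.31 (mean 0.40 ± 0.13, n = 2, 1.32-fold higher, limma adjusted p = 0.696, unadjusted p = 0.016). Probe A_51_P299454, 49.1 kb away, gave 0.13 and 0.05 (mean 0.09 ± 0.06; adjusted p = 0.904). The second probe minus the first was -0.36 on array 1 and -0.26 on array 2. The third probe, A_52_P510877, was too dim on array 2 to be tested and read 0.13 and 0.03.

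Mcl1, which encodes a short-lived pro-survival protein that lymphocytes need, had 2 bright probes that disagreed. Probe A_52_P93933 gave 2254 and 2016 (CD122+ and CD122-) on array 1 and 3489 and 2063 on array 2, with ratios of 0.16 and 0.76 (mean 0.46 ± 0.42, n = 2; limma adjusted p = 0.851). Probe A_51_P238786, 1.31 kb away, read 1235 and 1358 on array 1, then 1804 and 2132 on array 2, with ratios of -0.14 and -0.24 (mean -0.19 ± 0.07; adjusted p = 0.841). The second probe minus the first was -0.30 on array 1 and further apart on array 2 (mean -0.65 ± 0.50). The sign for Mcl1 therefore depended on the probe, and with median centring the array 1 ratio of A_51_P238786 was 0.26.

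**Figure D2:**
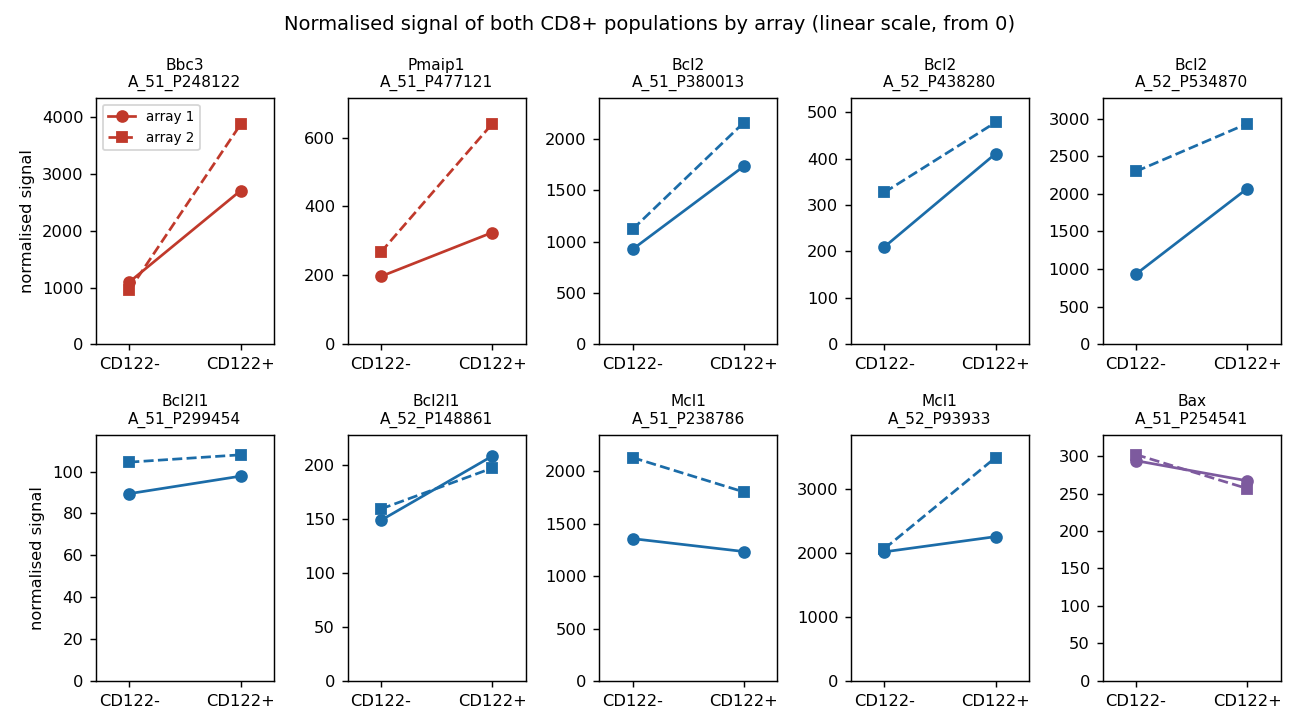
Normalised signal (vertical axis, linear from 0, its range set by probe) in CD122- and CD122+ cells for the probes of Bbc3, Pmaip1, Bcl2, Bcl2l1, Mcl1 and Bax, with array 1 as circles on solid lines and array 2 as squares on dashed lines. Lines rise from CD122- to CD122+ on both arrays for Bbc3 (1097 to 2708 and 954 to 3877), Pmaip1, the Bcl2 probes and the Bcl2l1 probes; the Mcl1 probes slope in opposite directions, and the Bax lines slope down (294 to 267 and 302 to 257).

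The effectors differed little. Bax, whose product inserts into the mitochondrial membrane once activated, gave signals of 267 in CD122+ and 294 in CD122- cells on array 1 and of 257 and 302 on array 2. The CD122+ signal was the lower on both arrays, with ratios of -0.14 and -0.23 (mean -0.19 ± 0.07, n = 2; 1.14-fold lower; limma adjusted p = 0.841, unadjusted p = 0.067). With median centring the Bax ratio of array 1 was 0.10, so its sign on that array depended on the scaling. Bak1, the gene of the other effector, had probes at 0.07 and 0.02 (A_52_P225207, mean 0.04 ± 0.03) and at 0.01 and -0.25 (A_51_P395011, mean -0.12 ± 0.19). With median centring A_52_P225207 was at 0.29 and -0.27. Neither Bak1 probe had an unadjusted limma p under 0.05.

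**Figure D3:**
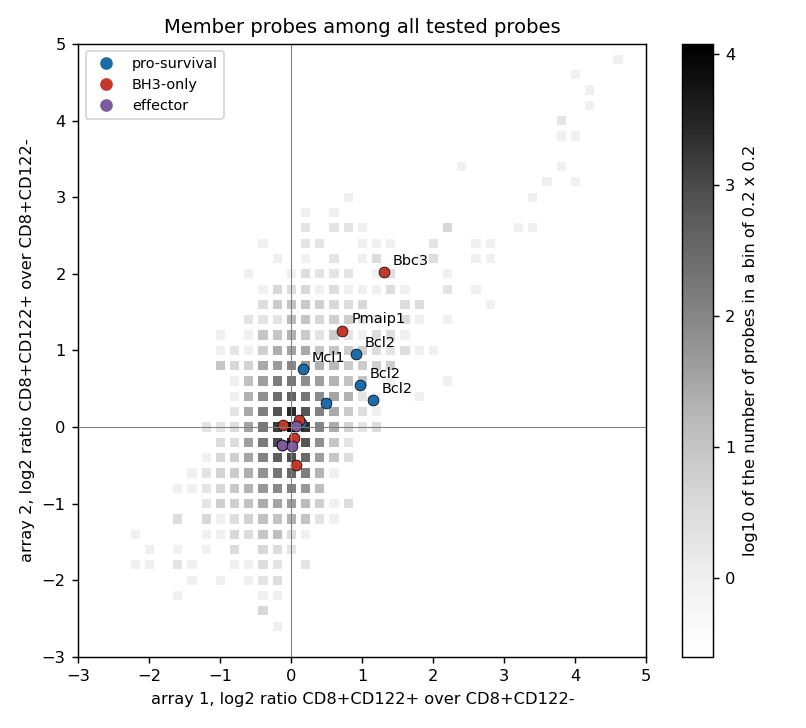
Log2 ratio on array 2 (vertical axis) against that on array 1 (horizontal axis), with grey squares for the number of tested probes per bin of 0.2 log2 units on a log10 colour scale and coloured points for the 16 tested member probes by class. Bbc3 lies at 1.30 and 2.02, apart from the mass of probes around 0, and the 3 Bcl2 probes spread along array 2 from 0.35 to 0.95 at array 1 ratios from 0.91 to 1.15.

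To set genes against each other, each gene was given the log2 ratio of its brightest tested probe, which for Bcl2 is A_52_P534870. Of the 45 pairs of members, 40 had the same order on both arrays and 5 did not; with median centring 31 had the same order. Bbc3 exceeded each of the other 9 genes on both arrays and Pmaip1 exceeded 7, with loess and with median centring alike. Bcl2 exceeded 6 genes with loess but 3 with median centring, Bcl2l1 exceeded 5 and 4, and Mcl1 exceeded 5 with either. Bbc3 exceeded Pmaip1 by 0.58 on array 1 and 0.76 on array 2 (0.67 ± 0.13, SD, n = 2). Mcl1 minus Bbc3 was -1.14 and -1.27. Bcl2 minus Bbc3 was -0.15 on array 1 and -1.67 on array 2, with an SD of 1.07 around a mean of -0.91. Pmaip1 and Bcl2 changed places between the arrays, as did Bcl2 and Mcl1, and Mcl1 and Bcl2l1, so those neighbours in the order were not separated. The counts of pairs and of genes exceeded include Bcl2l11, though its probe was too dim for its place in the order to be read. The Bad probe used, A_52_P614762, is in them too and was also dim. It read 70.2 and 68.3 (CD122+ and CD122-) on array 1 and 80.3 and 88.5 on array 2. At the lower end, Bid and Bax also changed places, with Bid minus Bax at 0.20 on array 1 and -0.26 on array 2.

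The pro-survival genes were compared with the pro-apoptotic ones. By their brightest probes and with loess, all 3 pro-survival genes were higher on both arrays. Their median log2 ratio was 0.49 on array 1 and 0.35 on array 2 (0.42 ± 0.09). The middle gene was Bcl2l1 on array 1 and Bcl2 on array 2, so this SD is not the spread of a gene. Between arrays the SD was 0.56 for Bcl2, 0.42 for Mcl1 and 0.13 for Bcl2l1. The shared direction of these genes depended on probe and scaling. The other Mcl1 probe was lower on both arrays (-0.14 and -0.24), and with median centring the Bcl2 probe used was at -0.09 on array 2. The 7 pro-apoptotic genes had medians of 0.07 and 0.02 (0.04 ± 0.03). Leaving out the dim Bcl2l11, 3 of the other 6 were higher on both arrays (Bbc3, Pmaip1 and Bak1), 1 was lower on both (Bax) and 2 had opposite signs (Bid and Bad), with medians of 0.06 and -0.06 (0.0011 ± 0.09). Over all 21902 genes 29.2% were higher on both arrays, 24% were lower on both and 46.8% had opposite signs, with medians of 0.01 and 0.003. The pro-survival median exceeded the pro-apoptotic median by 0.42 on array 1 and 0.34 on array 2 (0.38 ± 0.06, with the same change of middle gene). Genes are not replicates and 2 arrays cannot give a sign-flip p below 0.5, so this difference carries no test. The pro-apoptotic median hides a wide range, from -0.22 for Bid to 1.66 for Bbc3. The 4 BH3-only genes other than Bcl2l11 split into Bbc3 and Pmaip1, higher on both arrays, and Bid and Bad, of opposite signs, and the 2 effectors had medians of -0.04 and -0.11. With each gene given the mean over its tested probes, the pro-survival median was 0.28 in place of 0.42, because the second Mcl1 probe and the second Bcl2l1 probe enter.

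**Figure D4:**
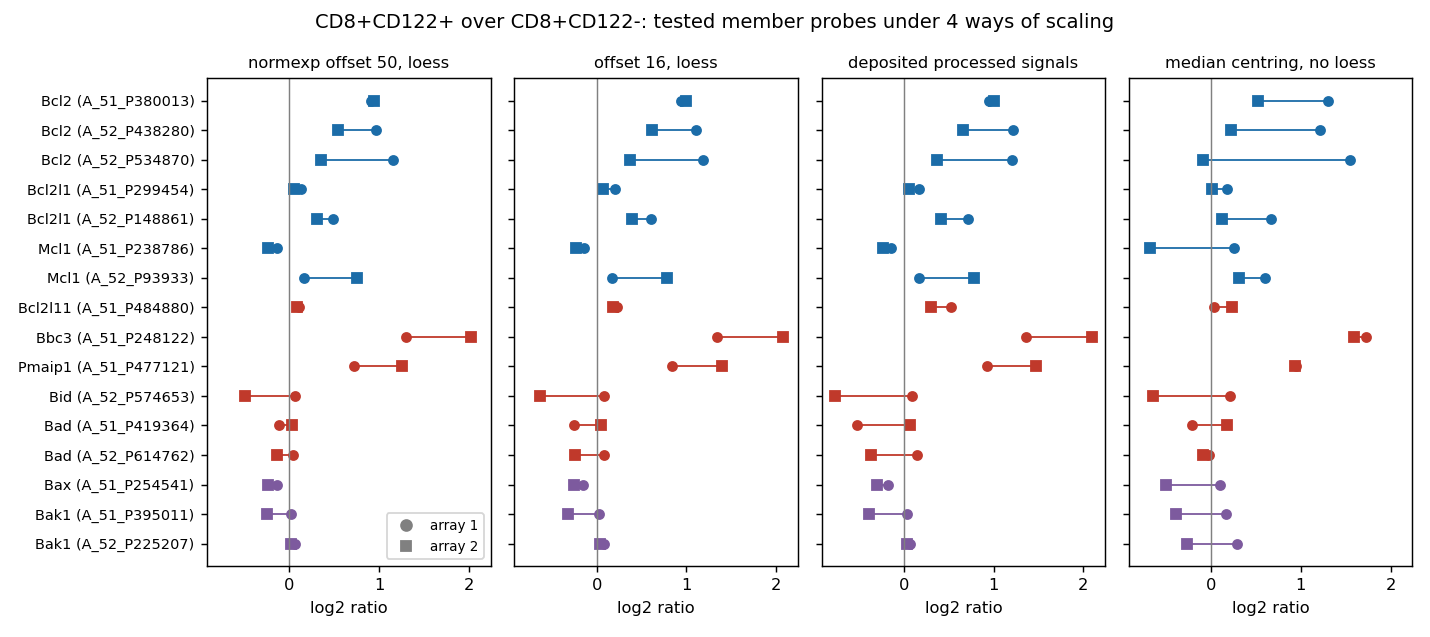
Log2 ratios of the 16 tested member probes (vertical axis) on array 1 (circles) and array 2 (squares) under 4 ways of scaling, 1 per panel, with the horizontal axis the log2 ratio of CD8+CD122+ over CD8+CD122-; blue marks pro-survival, red BH3-only and purple effector genes. Bbc3 keeps ratios above 1 on both arrays in every panel, whereas median centring without loess moves the arrays apart for most probes and brings the array 2 ratio of Bcl2 A_52_P534870 to -0.09.

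The scaling moved single arrays more than means. Under median centring the Bbc3 ratios were 1.73 and 1.59, and those of Pmaip1 were 0.95 and 0.93, closer together than with loess. For Bcl2 A_51_P380013 they were further apart than with loess. The mean Bbc3 ratio lay between 1.66 and 1.73 under the 7 other settings, and that of Bcl2 A_51_P380013 between 0.91 and 0.98. The between-array correlation over all tested probes, which are not independent replicates, was 0.381 (Pearson) and 0.110 (Spearman) with loess, and the Pearson value was 0.0072 with median centring.

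Beyond the members, 72 genes in 7 lists of the same pathway were followed, each by its brightest tested probe. Of the 66 tested, 17 were higher on both arrays, 17 lower and 32 of opposite sign, beside 29.2%, 24% and 46.8% of all genes. By the size criterion 1 was 2-fold higher on both arrays and 0 lower, against 0.301% and 0.105% of all genes. limma called 0 of the 66 at an adjusted p under 0.05. The counts by list below split these 66, were not tested and stand beside the same shares. The remaining pro-survival BCL-2 genes had 3 of 6 tested, all higher on both arrays. Their median of 0.66 came from 0.42 (array 1) and 0.90 (array 2), and it was 1.01 with offset 16 and 1.36 with the processed signals. Bcl2a1b, one of the near-identical mouse copies of the A1 gene whose probes can bind several copies, was at 0.69 and 1.84 (mean 1.27 ± 0.81; limma adjusted p = 0.786), and its signals went from 370 in CD122- to 599 in CD122+ cells on array 1 and from 441 to 1583 on array 2. A second copy, Bcl2a1c, was at 0.42 and 0.90, and the lowest of the list, Bcl2l10, was at 0.11. The 8 other pro-apoptotic BCL-2 genes were 1 higher, 2 lower and 5 of opposite sign (median 0.03; -0.05 on array 1 and 0.07 on array 2), from Bnip3 at -0.12 to Bcl2l13 at 0.21.

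Downstream of the mitochondria, the 9 apoptosome and mitochondrial genes were 2 higher, 2 lower and 5 of opposite sign (median -0.05; 0.08 on array 1 and -0.15 on array 2). They ran from Aifm1, the apoptosis-inducing factor, at -0.22 to Cycs, cytochrome c, at 0.18. Of the 9 caspase genes 2 were higher, 5 lower and 2 of opposite sign (median -0.20; -0.04 on array 1 and -0.27 on array 2), from Casp6, an executioner caspase, at -0.50 ± 0.38 to Casp4, an inflammatory caspase, at 0.34 ± 0.53. Of the inhibitor of apoptosis genes 6 of 8 were tested, 2 higher, 1 lower and 3 of opposite sign. Their median of 0.23 came from -0.13 on array 1 and 0.48 on array 2, and it was 0.12 under the stricter filter. Naip2, an inflammasome sensor of the same family, was highest at 0.69 and 0.51 on a dim probe (CD122- signal of 64.9 on array 1, not well above background), and Birc6 lowest at -0.14.

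In the death receptor pathway 2 of 10 genes were higher, 3 lower and 5 of opposite sign (median -0.09; 0.02 on array 1 and -0.18 on array 2). Fasl, the ligand that CD8+ T cells use to trigger FAS on other cells, passed the size criterion at 1.43 and 2.37 (mean 1.90 ± 0.66, n = 2; limma adjusted p = 0.624), with signals of 232 in CD122+ and 86.1 in CD122- cells on array 1 and of 447 and 86.5 on array 2. Its other tested probe had a mean of 0.33, so the size depended on the probe. Fas itself was lowest at -0.46 ± 0.23, while its other probe was at 0.11. Among 22 genes that control BCL-2 family expression or stability 21 were tested, 5 higher, 4 lower and 12 of opposite sign (median 0.02; -0.07 on array 1 and 0.03 on array 2). They ran from Stat5b, a mediator of IL-2 and IL-15 signals, at -0.51 ± 0.40 (its other probe at -0.06) to Pim1, a kinase gene induced through STAT5, at 0.27 and 1.62 (mean 0.95 ± 0.95).

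**Figure D5:**
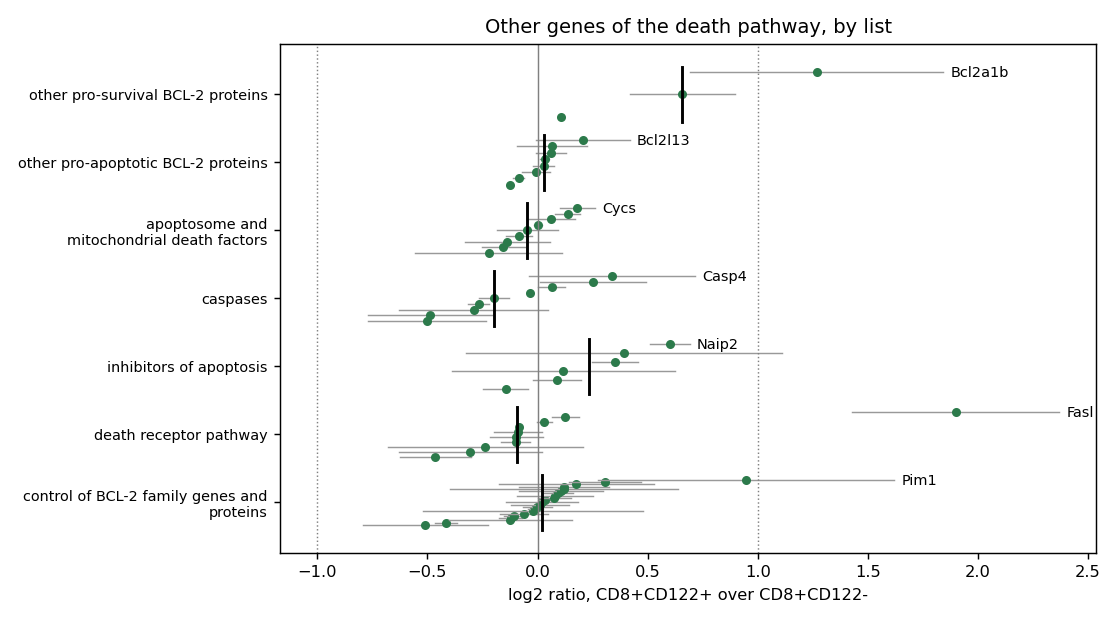
Mean log2 ratio (horizontal axis) of each tested gene in the 7 other lists of the pathway (vertical axis), with grey lines joining the values of the arrays, black bars at list medians and dotted lines at 2-fold. Fasl is the only gene whose whole line (1.43 to 2.37) lies past 2-fold, and the medians of the lists run from -0.20 (caspases) to 0.66 (other pro-survival BCL-2 proteins, 3 genes).

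Markers of other cells were set beside these values. Their counts by sign were not tested. Over all genes 29.2% were higher on both arrays, 24% lower and 46.8% of opposite sign. The summed signals below add unlike probes, each with its offset, so the brightest probe weighs most in them. Of the natural killer cell markers 4 of 6 were tested and 3 were higher on both arrays, with summed signals of 5857 and 4935 in CD122+ and 3974 and 3709 in CD122- cells on arrays 1 and 2. Most of each sum came from Nkg7 (5134 and 4132 against 3282 and 2933), a granule protein gene that cytotoxic T cells also express. Nkg7 was at 0.57 ± 0.11, and the other 3 tested markers had means between 0.05 and 0.10. The receptor genes Ncr1 and Klri2 did not pass the brightness filter. Of 6 dendritic cell markers 4 were higher on both arrays, with sums of 1164 and 1458 in CD122+ and 885 and 1183 in CD122- cells. Zbtb46 among them was at 1.37 ± 0.11 (432 and 427 against 159 and 174) and made up most of the difference in the sums. The other 3 had means between 0.03 and 0.05 by their brightest probe, but the second tested probe of Itgax was at 0.84. Of 5 macrophage markers 3 were tested and 2 were higher, with Lyz2 at 0.55 ± 0.31 and sums of 476 and 718 against 390 and 641. The 6 B cell markers were 2 higher, 2 lower and 2 of opposite sign, with sums of 817 and 937 against 863 and 1098. The 3 tested CD4 T cell markers all had opposite signs, as did the 1 neutrophil marker tested. The 2 tested red cell markers had sums of 322 and 3176 in CD122+ and 290 and 2765 in CD122- cells. Though signals were not scaled between arrays, these sums differed between the arrays far more than between the populations. The part of these markers in the ratios of Bbc3, Pmaip1 and Bcl2 was not tested.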

How the data were processed

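Both scanner files come from Agilent Feature Extraction, per the submitters' processing notes, in a different version for each array. Per the file headers they give, for every spot, a mean and a background intensity, processed signals already normalised between dyes by the authors, other values (flags of 0 or 1), and a log10 ratio, Cy5 over Cy3, with its error. The deposited value table repeats that log10 ratio, sign-turned on array 1, and so runs CD122- over CD122+, opposite to the ratios here; its column medians are 0, and its centring is not stated.

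Local background was removed with normexp (offset 50), and dyes were balanced by loess on each array, weighting control spots 0 (limma 3.58.1, R 4.3.3). Outlier-marked and control spots were then dropped and replicate spots averaged. Each tested probe was well above background on both arrays in at least 1 population, the same one on both arrays. The offset shrinks the ratios of dim probes. Both ratios were oriented as CD122+ over CD122- and fitted with lmFit and eBayes, with 1 residual degree of freedom and a two-sided test adjusted by Benjamini-Hochberg over all probes; a dye term would use up that degree of freedom. The steps were tested on simulated data. Scan and replicate cannot be told apart.

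Member probes were those named for a member in either scanner file, which differ for 4 probes; other genes were named through RefSeq accession, symbol or synonym. Every member probe is named; from the other lists, genes passing the size criterion and the highest and lowest gene of each list, Bcl2a1c being added after its value was seen. The members and lists were chosen with earlier results of these data known.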

Additional observations from a re-analysis of the deposited data

How the results depend on the processing

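Under the 7 other settings run for member probes (offset 16, processed signals, median centring, no filter, a stricter filter, outlier spots kept, the deposited value table) all 110 mean ratios kept their sign, 0 passed limma, and the smallest adjusted p was 0.263. Bbc3 was the only member past 2-fold on both arrays in each. The filter and outlier settings left the member ratios unchanged, and the value table repeated those of the processed signals. Agreement in sign under those settings was therefore fixed in advance, and only offset 16, processed signals and median centring could alter it. Median centring could move a mean little, because a dye effect common to both dye-swapped arrays cancels in the mean. With single arrays the signs of Bid (-0.49 to 0.061), Bad (A_51_P419364, -0.12 to 0.026; A_52_P614762, -0.14 to 0.039) and Bak1 (A_51_P395011, -0.25 to 0.014) turned.

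Offset 16 gave 120 probes 2-fold higher, 42 lower and 6 past limma, against 78, 25 and 0; the intensity-trend and robust fits gave 0. The processed signals and the value table each gave 199 and 85. Median centring gave 16 lower. Single arrays gave 109 to 336 higher and 42 to 219 lower. The size criterion then asks for 1 array only, so these counts cannot fall below those on both arrays. The cause of the other shifts was not tested.

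The pro-survival median of 0.42 was 0.56 with processed signals and 0.28 with the mean over probes. The pro-apoptotic median of 0.04 was 0.092 with processed signals, 0.0011 with the stricter filter and 0.0022 with the mean over probes. Their difference of 0.38 was 0.44 with offset 16, 0.47 with processed signals and 0.28 with the mean over probes. In the other lists 3 genes were 2-fold higher with processed signals and 0 with the mean over probes, against 1. Single arrays gave 1 to 4, and such counts cannot fall below the count on both arrays. With both arrays kept, 47 of 49 list medians moved by less than 1 SD; the exceptions are the other pro-survival genes (0.66, against 1.01 and 1.36). On array 1 alone 5 of the 7 list medians had the opposite sign. No paired analysis was possible because each ratio is already taken within an array and there is 1 group. Signal near background limits Naip2, Bcl2l11, both Bad probes and Bcl2l1 A_52_P510877.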
